A study of Mus musculus with 15 samples.

Results

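The collapsin response mediator genes, the stathmin genes and Gap43 are described here: Crmp1, Dpysl2, Dpysl3, Dpysl4, Dpysl5, Stmn1, Stmn2, Stmn3, Stmn4 and Gap43. These 10 genes were chosen by symbol from the 24346 genes of the expression table. Total RNA of cells from C57BL/6 mouse brain was sequenced as 15 libraries, 3 for each of 5 groups. D0 stands for the starting astrocytes, D4, D8 and D16 for what the labels call chemical-induced neurons on days 4, 8 and 16 of culture, and PN for primary neurons. The inducing compounds, the age of the animals, the brain region of the primary neurons and any genetic change are not given in the sources used here. Whether the 3 libraries of a group came from separate cultures is not stated, and the p-values therefore reflect the spread between these libraries alone, which could be technical.

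Both families regulate tubulin. Collapsin response mediator proteins (CRMPs) bind tubulin dimers and favour microtubule growth in axons, and they also act in the response to the repulsive cue semaphorin 3A, in which kinases such as CDK5 and GSK3 phosphorylate them and lower their binding to tubulin. Stathmins hold tubulin dimers away from microtubules and are switched off by phosphorylation. Stmn1 encodes the cytosolic form, abundant in dividing and immature cells. Stmn2 (SCG10), Stmn3 (SCLIP) and Stmn4 (RB3) encode membrane-attached forms of neurons. Gap43 encodes a membrane-bound protein of growth cones that binds calmodulin and is phosphorylated by protein kinase C.

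Values are FPKM, fragments scaled by transcript length and by the mapped fragments of the library, so levels may be compared between genes. Totals ran from 548309 to 787080 FPKM, and 11861 to 12907 genes reached 1 FPKM in a library. Pearson correlations between libraries of the same group were 0.966 to 0.987 on the log2 scale. Depth, estimated from the steps of low values, was about 7170000 to 20490000 fragments and was highest in PN replicates 1 and 2. Markers of astrocytes (7 of 7 at 1 FPKM or more) summed to 663 to 1521 FPKM in D0. The same D0 libraries held 2429 to 9377 FPKM of 7 smooth muscle and fibroblast markers and 279 to 375 FPKM of 6 markers of dividing cells. PN held all 7 neuronal markers, at a sum of 2128 to 2585 FPKM.

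Tests were run on the 13983 genes with 1 FPKM or more in 3 or more libraries, and all 10 genes were among them. Changes are differences of log2(FPKM + 1) with their standard errors from limma, a scale that understates changes of low values. A gene was called at a Benjamini-Hochberg adjusted p under 0.05 and a log2 change of at least 1. In bulk RNA, a change in the number of cells of a type and a change of RNA per cell cannot be told apart.

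The families split in the first 4 days. At D4 against D0, 3 of the 10 genes were called higher (Crmp1, Stmn3 and Stmn4), against 13.6% of all genes tested. Another 3 were called lower (Dpysl2, Dpysl3 and Stmn2), against 14.2% of all genes. At D8 against D0 the calls were 4 higher and 2 lower, with Dpysl5 added to the rise and Stmn2 no longer called; the shares over all genes were 15.5% and 16.9%. At D16 against D0 the calls were 5 higher (Crmp1, Dpysl4, Dpysl5, Stmn3 and Stmn4) and 1 lower (Dpysl3), against 16.6% and 18.7% of all genes. The median change of the 10 genes went from 0.02 at D4 to 0.72 at D8 and 1.05 at D16, while the median over all genes stayed between -0.01 and 0.01.

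Primary neurons stood above every other group for the whole set. In PN against D0 all 10 genes were called higher and none lower, where 17.1% of all genes were higher and 23.9% lower. The median of the 10 changes was 3.94, against -0.12 over all genes. Seen from PN, all 10 were called lower at D4 (16% of all genes lower, 22.0% higher), at D8 (15.5% lower, 20.5% higher) and at D16 (15% lower, 19.6% higher). None of the 10 genes had libraries that overlapped with PN in any group, but the share of all genes without overlap was not counted. These comparisons share the D0 or PN libraries, so their calls are not independent of each other.

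**Figure D1:**
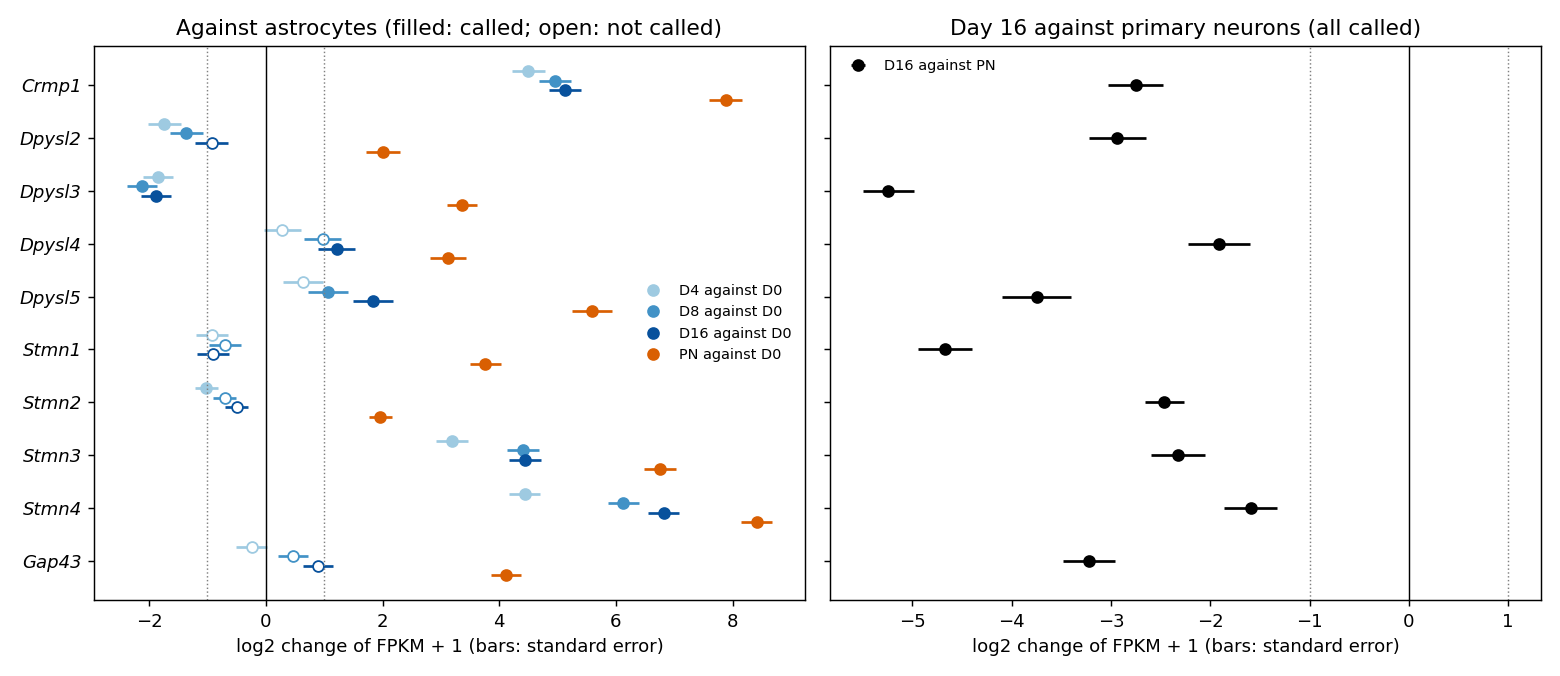
Log2 change of FPKM + 1 of each gene with its standard error, at D4, D8, D16 and PN against D0 (left) and at D16 against PN (right); filled points were called, and dotted lines mark a change of 1. Crmp1, Stmn3 and Stmn4 lie far to the right from D4 on, Dpysl3 lies below 0 at all 3 times, and all 10 genes lie below -1 against PN.

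Among the induced cells the changes were fewer. From D4 to D8, 2 of the 10 genes (Stmn3 and Stmn4) were called higher and none lower, where 0.501% of all genes were called higher and 1.51% lower. From D4 to D16, 4 were called higher (Dpysl5, Stmn3, Stmn4 and Gap43) and none lower, against 2.94% and 4.26% of all genes. From D8 to D16 limma called 0 of the 10, and only 0.0215% of all genes were called higher and 0.00715% lower. At an unadjusted p under 0.05, 2 of the 10 genes (Dpysl5 and Stmn4) and 1835 of all genes differed between D8 and D16.

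Stmn4 had the largest rise of the 10 genes from D0 to D16. It stood at 0.445, 0.434 and 1.32 FPKM in D0, 31.4, 44.5 and 32.2 at D4, 81.7, 182 and 107 at D8, 202, 149.8 and 225 at D16, and 566, 626 and 535 in PN. Every step except D8 to D16 separated the libraries completely. The changes against D0 were 4.44 ± 0.27 at D4 (adjusted p = 7.5e-09), 6.12 ± 0.27 at D8 (1.49e-10) and 6.82 ± 0.27 at D16 (4.19e-11). The rise from D4 to D8 was 1.69 ± 0.27 (adjusted p = 0.0022), and the further 0.69 ± 0.27 to D16 was not called (0.306). D0 levels of Stmn4 rest on few molecules: the lowest estimate was 6 fragments.

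Stmn3 followed the same course from a higher start. Its values were 10.8, 7.44 and 9.30 FPKM in D0, 102, 95.4 and 78.5 at D4, 208, 243 and 194 at D8, 328, 129 and 241 at D16, and 967, 1449 and 927 in PN. D8 and D16 overlapped, with D16 replicate 2 below every D8 library and D16 replicate 1 above them. The changes against D0 were 3.19 ± 0.27 at D4 (adjusted p = 2.41e-07) and 4.43 ± 0.27 at D16 (3.98e-09). From D4 to D8 Stmn3 rose by 1.22 ± 0.27 (adjusted p = 0.0212), a call lost when any of 5 of the 6 libraries was left out. From D4 to D16 it rose by 1.24 ± 0.27 (0.00615), which was 0.94 and not called without D16 replicate 1.

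Stmn2 and Stmn1 had another course, and both were already abundant in D0. Stmn2 was at 248.6, 346 and 318 FPKM in D0, 132, 139 and 177 at D4, 163, 203 and 191 at D8, 194, 229 and 217 at D16, and 1157, 1547 and 911 in PN. Every D0 library lay above every library of the induced cells, and every PN library lay above D0. The fall from D0 to D4 was called (-1.02 ± 0.20, adjusted p = 0.000507). It was -0.70 ± 0.20 at D8 (0.00655) and -0.50 ± 0.20 at D16 (0.0391), both short of a change of 1. The call at D4 sits on that limit: it was lost under quantile normalization and when any of 4 of the 6 libraries was left out, with changes of -1.16 to -0.82 over all alternatives.

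Stmn1 read 202, 208 and 175 FPKM in D0, 75.8, 154 and 91.0 at D4, 96.4, 183 and 97.5 at D8, 119, 77.5 and 120.1 at D16, and 2635, 2647 and 2680.1 in PN. The PN libraries were close to each other, and Stmn1 ranked between 9 and 15 among all genes there. Replicate 2 was the highest library at D4 and D8 and the lowest at D16; it was also the most deeply sequenced library of D4, D8 and D16. The part of depth in this was not tested. Against D0 Stmn1 was -0.92 ± 0.27 at D4 (adjusted p = 0.01), -0.69 ± 0.27 at D8 (0.0392) and -0.91 ± 0.27 at D16 (0.00928), never past a change of 1. Without D4 replicate 2 the D4 change was -1.22 and called, and the D16 change was just past the limit and called without D16 replicate 1 or without D16 replicate 3 (-1.01).

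The 4 stathmins are close relatives, with 66.1 to 73.6% of aligned coding bases identical in pairs. The 75 bases of their coding sequence (GENCODE transcripts, GRCm38) with the most bases the same in all 4 are shown. Assignment of reads between the stathmins was not tested. Capitals mark the 50 bases that are the same in all 4.
Stmn1: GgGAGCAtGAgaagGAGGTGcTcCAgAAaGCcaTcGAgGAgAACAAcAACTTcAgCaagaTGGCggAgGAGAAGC
Stmn2: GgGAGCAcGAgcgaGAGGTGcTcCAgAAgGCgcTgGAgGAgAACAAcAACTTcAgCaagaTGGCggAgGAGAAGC
Stmn3: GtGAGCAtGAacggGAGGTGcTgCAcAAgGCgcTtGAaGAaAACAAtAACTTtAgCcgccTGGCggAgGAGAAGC
Stmn4: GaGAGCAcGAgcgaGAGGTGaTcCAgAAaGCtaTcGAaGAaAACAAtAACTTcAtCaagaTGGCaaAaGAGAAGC
No window of 75 bases was shared between any of the 10 genes in their main transcripts. Outside the set, 301 of 986 such windows of Stmn1 (30.5%) also occur in the annotated gene Gm11223, which was not analysed here. How the authors' counting treated those reads is not given in the sources used here, so the level of Stmn1 is less certain than the others.

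**Figure D2:**
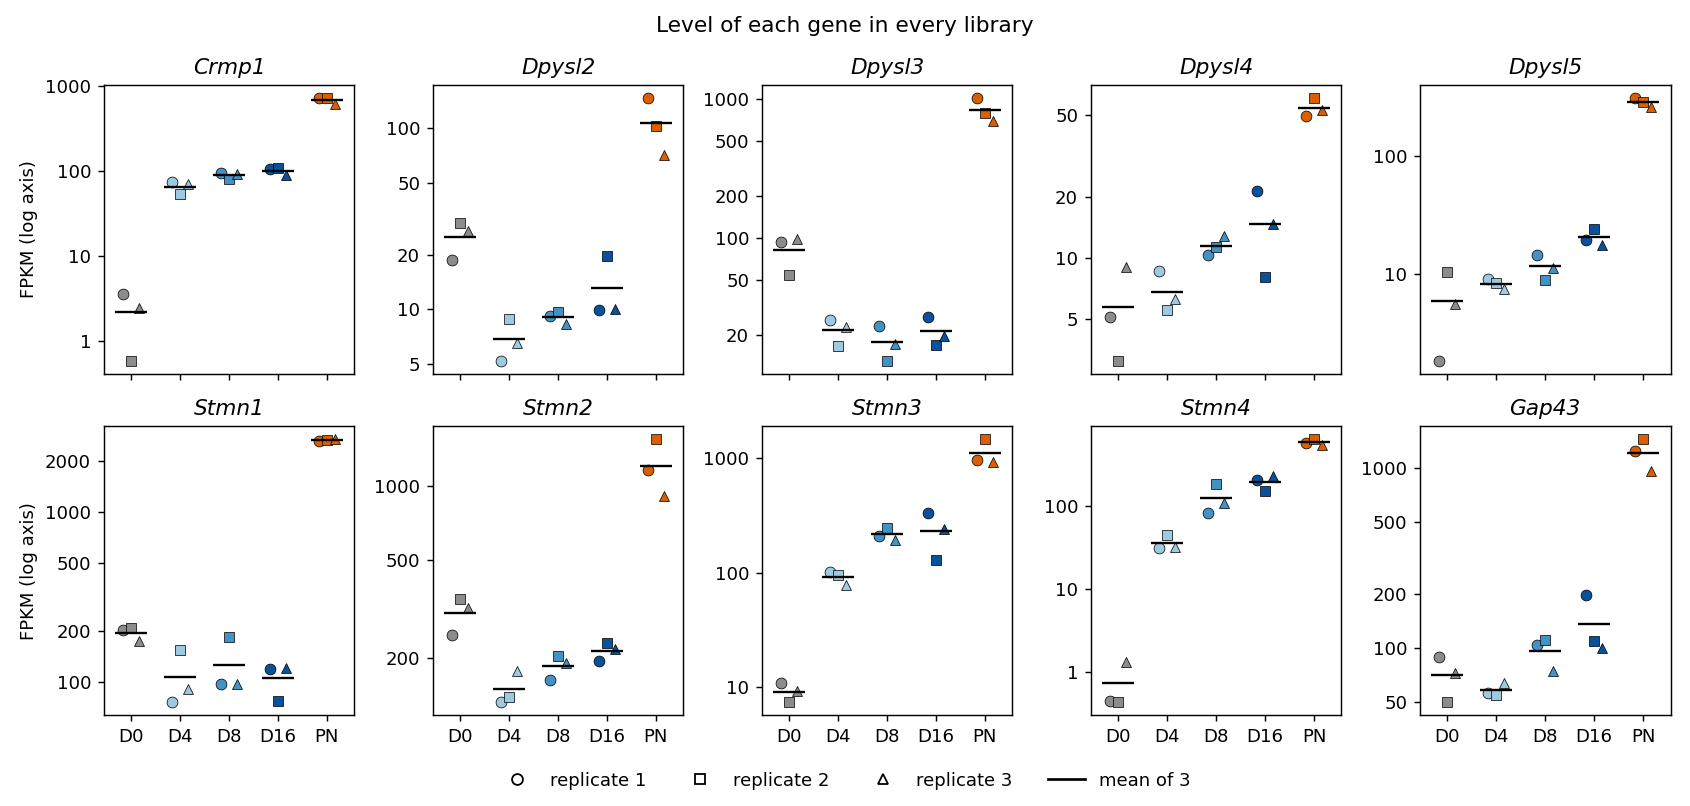
FPKM of each gene in every library on a log axis, 1 panel per gene with its own scale; symbols mark replicates and lines the mean of 3. PN is the highest group in all 10 panels; Crmp1, Stmn3 and Stmn4 climb from D0, Dpysl2 and Dpysl3 are lower at D4 and D8 than in D0, and Stmn1, Stmn2 and Gap43 start high.

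The makeup of the stathmin family differed between D0, D16 and PN. In D0, Stmn2 took 59.5% ± 5.0 of the summed stathmin FPKM (SD, n = 3) and Stmn1 took 38.5% ± 4.7, which left 1.84% ± 0.51 for Stmn3 and 0.145% ± 0.102 for Stmn4. By D16 Stmn3 held 30.3% ± 8.5, Stmn2 29.7% ± 8.4, Stmn4 25.8% ± 2.0 and Stmn1 14.1% ± 0.9. In PN Stmn1 led with 48.3% ± 5.5, followed by Stmn2 at 21.5% ± 3.3, Stmn3 at 19.9% ± 2.8 and Stmn4 at 10.4% ± 0.4.

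The shares separated D16 from PN for Stmn1 (13.2 to 14.95% against 42.2 to 53.0%) and for Stmn4 (24.0 to 28.02% against 9.98 to 10.6%). A two-sided exact permutation test gave p = 0.1 for each, the smallest that 3 against 3 libraries allow, and 0.15 after Benjamini-Hochberg adjustment over 9 shares. For Stmn2 and Stmn3 the exact p was 0.2. The family total was 462 to 562 FPKM in D0, 586 to 843 at D16 and 5052 to 6270 in PN.

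**Figure D3:**
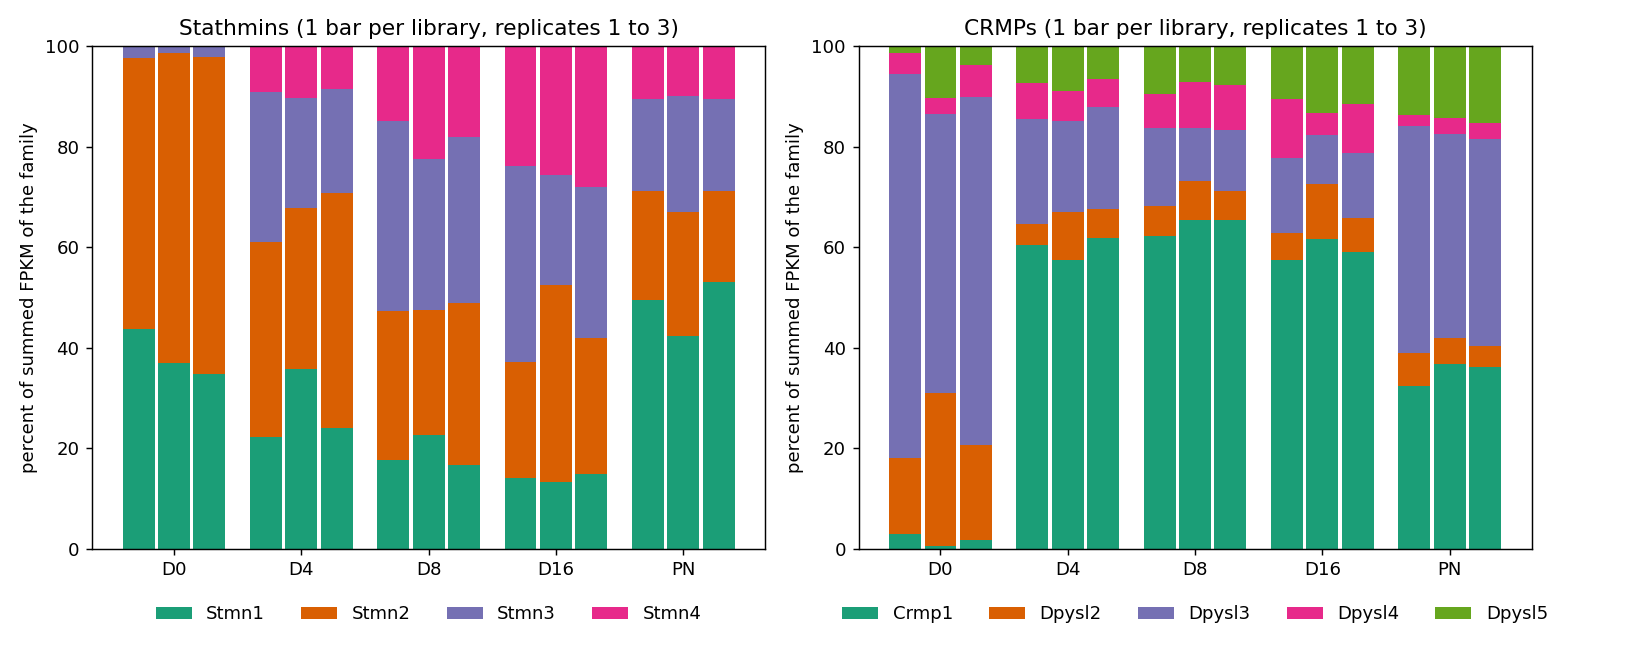
Share of each stathmin (left) and each CRMP gene (right) in the summed FPKM of its family, 1 bar per library. Stmn1 and Stmn2 fill nearly all of the D0 bars, by group mean Stmn1 is thinnest at D16 and widest in PN; Crmp1 takes 57.4 to 65.4% of every D4, D8 and D16 bar.

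Crmp1 was the CRMP gene with the largest change. Its product acts in axon guidance downstream of semaphorin 3A. Crmp1 measured 3.57, 0.577 and 2.44 FPKM in D0, 73.8, 53.2 and 69.9 at D4, 94.1, 81.1 and 93.7 at D8, 105, 109.9 and 89.6 at D16, and 729.8, 722 and 613 in PN. Every D4 library was above D0, D8 and D16 overlapped, and neither of them was called against D4. The change from D0 was 4.50 ± 0.28 at D4 (adjusted p = 9.45e-09) and 5.13 ± 0.28 at D16 (1.1e-09). PN lay 7.88 ± 0.28 above D0 (8.27e-12). D0 levels of Crmp1 also rest on few fragments, with a lowest estimate of 25. The D4 change ran from 4.06 to 5.14 over the alternatives and was called in all of them.

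Dpysl2 and Dpysl3 went the other way. Dpysl2 encodes CRMP2, the best-studied tubulin carrier of the family and a partner of kinesin-1. It was at 18.6, 30.03 and 27.02 FPKM in D0, 5.19, 8.87 and 6.50 at D4, 9.13, 9.69 and 8.31 at D8, 9.93, 19.6 and 9.99 at D16, and 147, 103 and 71.3 in PN. All D4 and D8 libraries were below D0, while D16 replicate 2 reached the D0 range. Dpysl2 fell by 1.74 ± 0.29 on the log2 scale at D4 (adjusted p = 0.000118) and by 1.36 ± 0.29 at D8 (0.000791). At D16 it was -0.93 ± 0.29 (0.0105), not called, but called without D16 replicate 2 (-1.23) or D0 replicate 1 (-1.12).

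Dpysl3 encodes CRMP4, which binds actin bundles as well as tubulin. Its levels were 94.2, 54.5 and 98.4 FPKM in D0, 25.6, 16.9 and 22.9 at D4, 23.4, 13.1 and 17.4 at D8, 27.1, 17.1 and 19.7 at D16, and 1016, 798 and 699 in PN. Replicate 2 was the lowest library of D0, D4, D8 and D16, and still every D0 library exceeded every induced one. The change from D0 was -1.84 ± 0.26 (adjusted p = 2.89e-05), with -2.13 ± 0.26 at D8 (5.31e-06) and -1.88 ± 0.26 at D16 (1.55e-05). It remained called in every alternative run.

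Dpysl4 was called higher than D0 at D16, and Dpysl5 at D8 and D16. Dpysl4, which encodes CRMP3, was at 5.14, 3.13 and 9.06 FPKM in D0, 8.62, 5.56 and 6.29 at D4, 10.3, 11.4 and 12.8 at D8, 21.4, 8.06 and 14.6 at D16, and 49.5, 60.7 and 53.3 in PN. D16 overlapped with D0 through its replicate 2. The change at D16 was 1.21 ± 0.31 (adjusted p = 0.00349), but 0.90 without D0 replicate 2 and 0.91 without D16 replicate 1, both short of the limit. At D8 it was 0.97 ± 0.31 (0.0149), not called, and it gained the call in 5 alternatives, with changes of 0.66 to 1.304 over all of them.

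Dpysl5 encodes CRMP5, the most divergent CRMP. It read 1.82, 10.3 and 5.50 FPKM in D0, 9.07, 8.26 and 7.37 at D4, 14.5, 8.85 and 11.2 at D8, 19.4, 23.7 and 17.6 at D16, and 307, 283 and 259.8 in PN. D0 was widely spread and overlapped with D4 and D8, whereas all D16 libraries lay above D0, D4 and D8. The change against D0 was 0.64 ± 0.34 at D4 (adjusted p = 0.13), 1.06 ± 0.34 at D8 (0.0151) and 1.83 ± 0.34 at D16 (0.000271). The D4 change ran from 0.10 to 1.10 with single libraries left out and was called without D0 replicate 2. The D8 call was lost in 4 alternatives: without D0 replicate 1 (0.52) or D8 replicate 1 (0.89), after rescaling to an equal total, and when only D0 and D8 were fitted (adjusted p = 0.0732). From D4 to D16 Dpysl5 rose by 1.196 ± 0.343 (0.0257). That call was lost in 5 of 15 alternatives, with changes of 1.08 to 1.29 and adjusted p up to 0.0939 over all of them.

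CRMP coding sequences were identical at 57.4 to 74.3% of aligned bases in pairs, lowest in pairs with Dpysl5. The 75 bases with the most agreement are shown for 4 of the genes, and capitals mark the 49 bases that agree in all 4.
Crmp1: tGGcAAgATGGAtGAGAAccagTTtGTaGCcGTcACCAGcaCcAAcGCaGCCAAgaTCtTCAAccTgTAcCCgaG
Dpysl2: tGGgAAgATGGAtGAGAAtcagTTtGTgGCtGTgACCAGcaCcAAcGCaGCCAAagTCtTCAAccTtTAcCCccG
Dpysl4: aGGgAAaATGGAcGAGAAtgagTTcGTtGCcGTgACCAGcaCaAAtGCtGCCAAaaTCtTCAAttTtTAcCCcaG
Dpysl5: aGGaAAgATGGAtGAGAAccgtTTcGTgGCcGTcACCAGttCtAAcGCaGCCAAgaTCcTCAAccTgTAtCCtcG
The differences are scattered along the stretch in all 4 genes, and no 75-base window was shared between them.

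The leading CRMP gene changed from Dpysl3 to Crmp1 and differed again in PN. Dpysl3 held 66.9% ± 10.7 of the summed CRMP FPKM in D0 and Crmp1 1.73% ± 1.16. At D4 Crmp1 held 59.9% ± 2.3 and at D16 59.4% ± 2.1, with Dpysl3 at 12.47% ± 2.65. In PN Dpysl3 led again with 42.3% ± 2.5, before Crmp1 with 35.1% ± 2.3 and Dpysl5 with 14.4% ± 0.8. D16 and PN shares did not overlap for Crmp1, Dpysl3, Dpysl4 or Dpysl5, each at the smallest exact p of 0.1 (0.15 adjusted over the 9 shares). Dpysl2 overlapped (exact p = 0.2).

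The family total of the CRMPs was 98.5 to 142 FPKM in D0, 92.8 to 122 at D4, 152 to 183 at D16 and 1697 to 2249 in PN. D0 and D4 thus had overlapping totals, although the gene that supplied most of the total differed.

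Gap43 was not called against D0 at D4, D8 or D16. It stood at 89.1, 49.7 and 72.5 FPKM in D0, 56.0, 54.4 and 63.2 at D4, 104, 110.4 and 74.6 at D8, 196, 108 and 99.5 at D16, and 1245, 1447 and 970.4 in PN. D4 and D8 overlapped with D0, and D16 did not. The change against D0 was -0.24 ± 0.26 at D4 (adjusted p = 0.457), 0.47 ± 0.26 at D8 (0.137) and 0.90 ± 0.26 at D16 (0.00761). The D16 change was called in 5 alternatives: without the minimum on the change, under quantile normalization (1.10), and without D0 replicate 1 (1.08), D16 replicate 2 (1.02) or D16 replicate 3 (1.08). From D4 to D16 Gap43 rose by 1.14 ± 0.26 (0.008), and by 0.84, not called, without D16 replicate 1, the library with the highest value.

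Ordered by mean level, the groups ran D0, D4, D8, D16, PN for Crmp1, Dpysl4, Dpysl5, Stmn3 and Stmn4. For Dpysl2 and Stmn2 the order was D4, D8, D16, D0, PN, and for Dpysl3 it was D8, D16, D4, D0, PN. Stmn1 ran D16, D4, D8, D0, PN and Gap43 ran D4, D0, D8, D16, PN. The step up to PN was called for all 10 genes. Of the other neighbours in these orders, only D0 and D4 for Crmp1, Stmn3, Stmn4 and Dpysl3, and D4 and D8 for Stmn3 and Stmn4, differed by a called change.

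On GRCm38 the CRMP genes lie at chr5:37241940-37292133 (Crmp1), chr14:66802864-66868688 (Dpysl2), chr18:43320984-43438286 (Dpysl3), chr7:139086001-139102704 (Dpysl4) and chr5:30711564-30799375 (Dpysl5). The stathmin genes lie at chr4:134468320-134473843 (Stmn1), chr3:8509360-8561606 (Stmn2), chr2:181306459-181314500 (Stmn3) and chr14:66344296-66361680 (Stmn4), and Gap43 at chr16:42248442-42340651. Dpysl2 and Stmn4, which both lie on chromosome 14, moved in opposite directions from D0 to D4.

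At D16 the 10 genes stood at different percentages of the PN level. The mean at D16 was 2.54% of the PN mean for Dpysl3, 3.97% for Stmn1, 7.15% for Dpysl5, 11.03% for Gap43, 12.3% for Dpysl2 and 14.8% for Crmp1. It was 17.7% for Stmn2, 20.9% for Stmn3, 26.98% for Dpysl4 and 33.4% for Stmn4. The changes of D16 against PN ran from -5.24 ± 0.26 for Dpysl3 (adjusted p = 5.02e-10) to -1.59 ± 0.27 for Stmn4 (9.95e-05). Differences between genes in this percentage were not tested.

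PN replicate 3 was the lowest PN library for 8 of the 10 genes. It was also the PN library with smooth muscle transcripts: Acta2 was at 31.2 FPKM there against 0.165 and 0.130 FPKM in the other PN libraries, and Tagln at 42.9 against 0.469 and 0.554 FPKM. The part of those cells in the lower values was not tested. All 10 genes remained called lower at D16 than in PN when any single library was left out.

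The position of these genes among markers differed between D0 and the induced cells. In D0, Stmn2 ranked between 298 and 392 among all genes and Stmn1 between 484 and 571. The synaptic fusion gene Snap25 was at 0.516 and 0.0324 FPKM in replicates 1 and 2 of D0 and was listed at 0 in replicate 3. Rbfox3, a nuclear protein of mature neurons, was at 0.0342 to 0.194 FPKM in D0, and Dcx, a microtubule protein of migrating neurons, at 0.0344 to 0.0706 FPKM. Other neuronal markers were present in D0: 5 of the 7 listed reached 1 FPKM, with Map2, a dendritic microtubule protein, at 12.8 to 32.2 FPKM and the neuronal tubulin gene Tubb3 at 6.62 to 32.6 FPKM. The whole list summed to 33.1 to 75.6 FPKM in D0, and its part in the D0 levels of Stmn1, Stmn2, Gap43 and Dpysl3 was not tested.

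The list of dividing-cell markers, all 6 of which were called lower at D16 against D0, summed to 279 to 375 FPKM in D0, 44.5 to 76.3 at D4, 3.86 to 5.16 at D8, 2.46 to 4.34 at D16 and 20.4 to 40.9 in PN. In D8 and D16 at most 2 of its 6 genes reached 1 FPKM, and Stmn1 was at 77.5 to 183 FPKM. The smooth muscle and fibroblast list fell from 2429 to 9377 FPKM in D0 to 33.1 to 60.8 at D4, alongside Dpysl2, Dpysl3 and Stmn2. The astrocyte list went from 663 to 1521 FPKM in D0 to 433 to 506 at D4 and 40.0 to 45.6 at D16. In PN the astrocyte list summed to 119 to 209 FPKM, and 4 of its 7 genes were called lower at D16 than in PN. The part of these cells in the levels of the 10 genes, in D0, in the induced cells or in PN, was not tested.

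All 10 genes were highest in PN, and markers of immature neurons are given beside them. The part of such cells in the levels of the 10 genes was not tested. The 5 listed markers summed to 1220 to 1372 FPKM in PN and to 74.3 to 86.8 FPKM at D16. Dcx was at 115 to 153 FPKM in PN and 0.209 to 0.414 at D16, and the cortical factor Neurod6 at 191 to 270.4 FPKM in PN and at most 0.0837 at D16. Nrep, the largest part of the PN sum, was at 774 to 926 FPKM in PN and 10.8 to 31.7 at D16. Sox11 and Igfbpl1 differed from these and were not called at D16 against PN. Sox11 was at 38.9 to 60.7 FPKM in PN and 44.1 to 67.7 at D16, and Igfbpl1 at 7.54 to 66.8 in PN and 7.35 to 10.7 at D16. Of the 7 neuronal markers, 4 were called lower at D16 than in PN, as all 10 genes were. Tubb3 was at a mean of 168 FPKM at D16 and 1660 in PN, Map2 at 30.9 and 215.9, Rbfox3 at 5.58 and 50.1, and Syt1 at 32.96 and 101.7. The other 3, Snap25, Syn1 and Nefl, overlapped between D16 and PN and were not called.

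**Figure D4:**
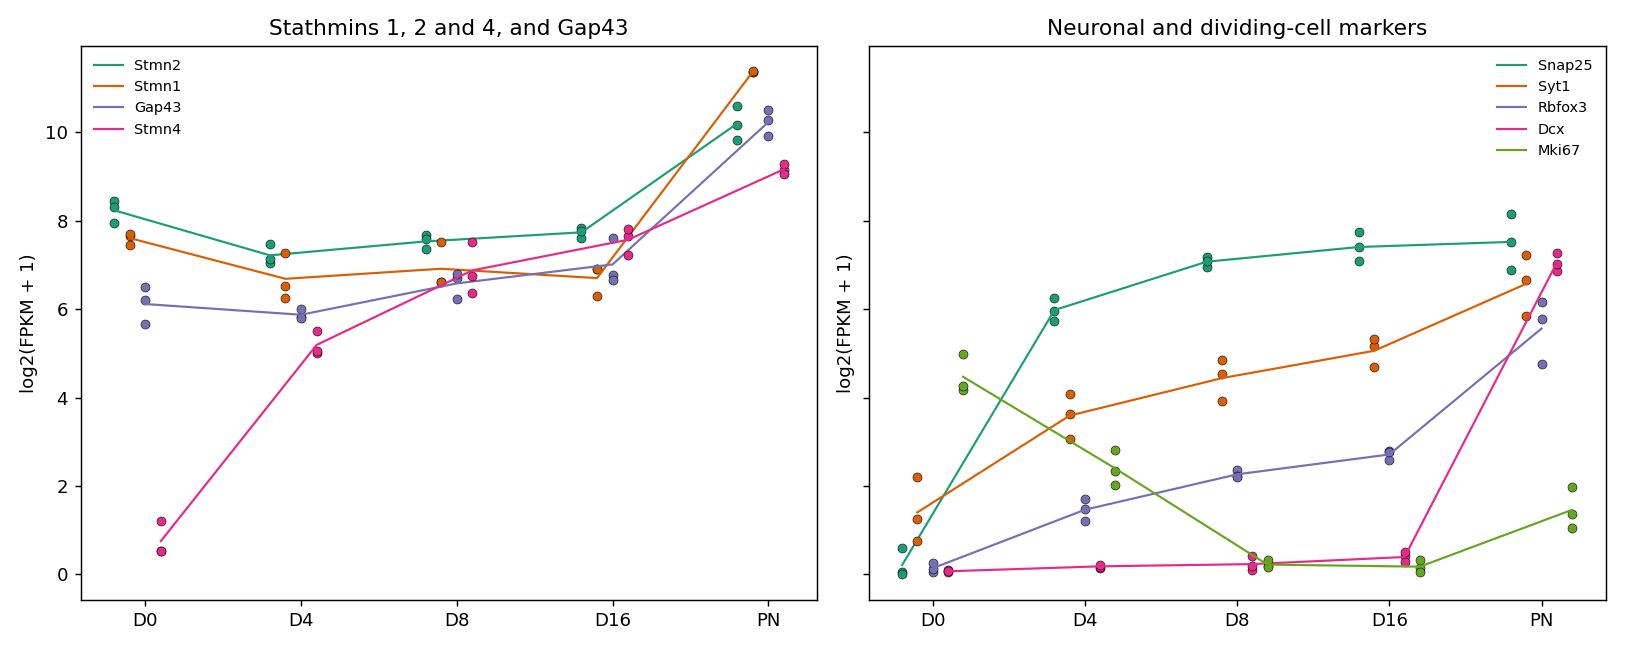
Log2(FPKM + 1) in every library for Stmn1, Stmn2, Stmn4 and Gap43 (left) and for neuronal markers and the dividing-cell marker Mki67 (right); lines join the group means of the log2 values. Stmn1, Stmn2 and Gap43 start high in D0; Snap25 and Rbfox3 are low in D0 and higher at D16, and Dcx is at most 0.414 FPKM up to D16 and is at 115 to 153 FPKM in PN.

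Genes that act on or with these proteins were taken from 6 lists. Over all genes tested, 16.6% were higher and 18.7% lower at D16 against D0, 17.1% higher and 23.9% lower in PN against D0, and 19.6% higher and 15% lower at D16 against PN. The semaphorin 3A receptor complex, which signals through CRMPs, had 13 tested genes of 14. At D16 against D0, 3 were called higher, 1 lower and 9 not, with a list median of -0.34, and the share called higher is near that over all genes. The adhesion co-receptor L1cam rose from a mean of 0.181 to 20.9 FPKM (4.19 ± 0.30, adjusted p = 1.8e-08), the plexin receptor gene Plxna4 rose by 1.36 ± 0.28 and Plxna3 by 1.06 ± 0.21. The ligand gene Sema3a, at 0.604 to 4.39 FPKM in the D0 libraries, fell to a mean of 0.269 FPKM (-1.23 ± 0.29).

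In PN 9 of these 13 genes were above D0, and 9 were lower at D16 than in PN. The neuropilin receptor Nrp1 was at 8.91 FPKM at D16 against 42.3 in PN (-2.12 ± 0.34), Nrp2 at 5.29 against 36.4 (-2.50 ± 0.48) and Plxna2 at 4.42 against 29.4 (-2.51 ± 0.34). The kinase gene Fyn was at 23.1 against 110.2 FPKM (-2.23 ± 0.18).

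CRMP kinases and their activators numbered 10, and 4 were called higher and 2 lower at D16 against D0. Both CDK5 activators rose: Cdk5r2 from 0.205 to 42.3 FPKM (5.17 ± 0.27, adjusted p = 6.73e-10) and Cdk5r1 from 1.57 to 15.4 FPKM (2.73 ± 0.21, 4.93e-08). The kinase gene Rock2 fell from 78.9 to 13.8 FPKM (-2.43 ± 0.14). The calcium-dependent kinase gene Camk2a fell from 5.57 to 0.207 FPKM (-2.15 ± 0.49) and was at 53.7 FPKM in PN. Camk2a libraries were widely spread, at 0.893 to 8.64 FPKM in D0 and 27.3 to 89.6 in PN. Camk2b was at 14.2 FPKM at D16 and 244 in PN (-4.01 ± 0.28). Against PN, 5 of the 10 were lower and 1 higher.

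Cargo and actin partners of the CRMPs had 9 tested genes of 10, of which 6 were higher and 1 lower at D16 against D0. The kinesin motor gene Kif5a rose from 1.17 to 75.3 FPKM (5.16 ± 0.29, adjusted p = 1.36e-09) and Kif5c from 18.6 to 155 FPKM (2.99 ± 0.17). Cacna1b, the N-type calcium channel that CRMP2 binds, rose from 0.102 to 19.5 FPKM (4.22 ± 0.26). Cyfip1, of the actin-regulating WAVE complex, fell from 51.2 to 7.84 FPKM (-2.56 ± 0.17). Against PN this list had 2 genes higher, 2 lower and 5 not called, with a median of -0.06. Over all genes tested, 9143 of 13983 were not called in this comparison, so most genes of any kind were not. All 5 CRMP genes were called lower.

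Among the 11 stathmin kinases, 2 were higher and 2 lower at D16 against D0, shares close to the 16.6% and 18.7% over all genes. The mitotic kinase genes Cdk1 (51.5 to 1.201 FPKM, -4.66 ± 0.27) and Aurkb (21.8 FPKM to a listed 0 in all 3 libraries) were those that fell. Mapk8, which encodes JNK1, rose from 5.15 to 25.3 FPKM (2.10 ± 0.14, adjusted p = 6.77e-09) and Uhmk1 from 19.5 to 56.1 FPKM (1.47 ± 0.22). Against PN 6 were lower and 2 higher, led by Mapk10, which encodes the neuronal kinase JNK3 (1.65 against 46.6 FPKM, -4.19 ± 0.24).

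Relatives and binders of Gap43 numbered 13, with 6 higher and 1 lower at D16 against D0. Prkcb, a protein kinase C gene, rose from 1.16 to 19.5 FPKM (3.30 ± 0.40) and the calmodulin-binding gene Nrgn from 1.75 to 21.4 FPKM (3.17 ± 0.67). Elavl4, which encodes an RNA-binding protein that stabilises Gap43 mRNA, rose as well (1.74 ± 0.28). In PN 11 of the 13 were above D0 and none below. Against PN, 9 were lower at D16 and none higher, among them Pcp4 (9.83 against 191 FPKM, -4.01 ± 0.63), Elavl4 (-2.78 ± 0.28) and Marcksl1 (251 against 1355 FPKM, -2.42 ± 0.28).

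Injury and regrowth genes ran the opposite way between D16 and PN. Of 12, 4 were higher and 2 lower at D16 against D0, with Atf3, an injury-induced transcription factor, from 5.61 to 60.3 FPKM (3.22 ± 0.35, adjusted p = 1.28e-06) and Sox11 from 6.50 to 54.0 FPKM (2.88 ± 0.22). In PN 7 were below D0 and 2 above. At D16 7 were higher than in PN and 1 lower, with a list median of 1.56 against 0.06 over all genes. Gadd45a was at 96.5 FPKM at D16 and 1.54 in PN (5.28 ± 0.34), Atf3 at 60.3 against 1.03 (4.94 ± 0.35), Hspb1 at 55.7 against 1.83 (4.43 ± 0.43) and Stat3 at 139.8 against 14.0 (3.21 ± 0.18).

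**Figure D5:**
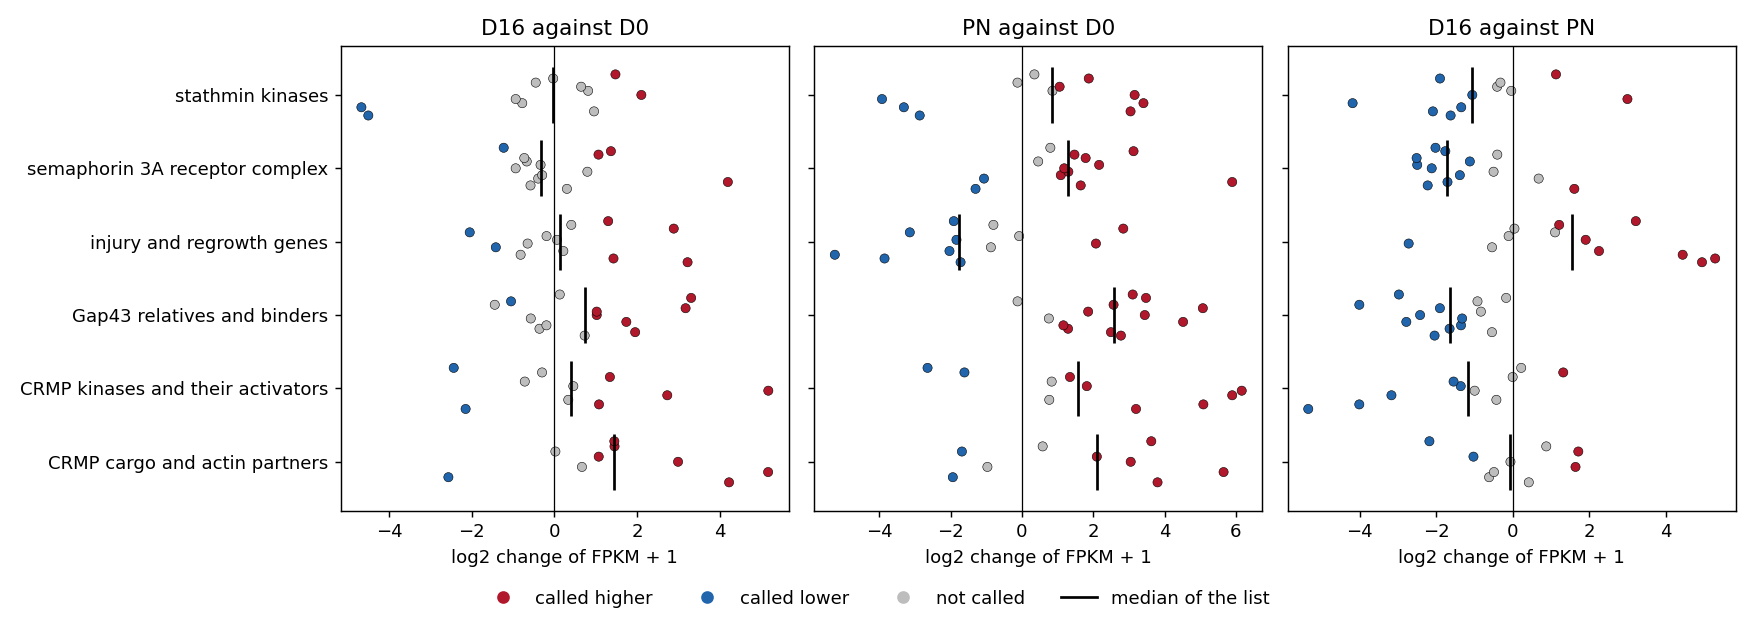
Log2 change of every tested gene of the 6 related lists at D16 against D0, PN against D0 and D16 against PN; colour gives the call and the black bar the list's median. The injury and regrowth list lies mainly to the right of 0 at D16 against PN, while the receptor list and the Gap43 list lie mainly to the left.

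The genes whose profile over the 15 libraries was most like a member were found by Pearson correlation, which all groups and the distance to PN shape. Crmp1 was most like Rundc3b (r = 0.995), Sbk1 and Tub, and Stmn3 most like Mapk8 (0.991), Celf3 and Rundc3b. Stmn4 was nearest to Actl6b (0.989), Tmeff1 and Gdap1. The nearest genes to Stmn2 were Tubb2a (0.984), Hmgcs1 and Tubb2b, of which Tubb2a and Tubb2b encode beta tubulins. Dpysl2 shared Hmgcs1 (0.974) as its nearest gene. Dpysl3 was nearest to Frat1 (0.992), Dpysl4 to Zfp157 (0.979), Dpysl5 to Camk2b (0.990) and Gap43 to Spock2 (0.987).

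Within the set, Crmp1, Stmn3 and Stmn4 correlated at 0.962 to 0.978 with each other over the 15 libraries, and Dpysl2, Dpysl3, Stmn1 and Stmn2 at 0.917 to 0.967. Correlations between these groups of genes ran from 0.231 to 0.541. Dpysl4, Dpysl5 and Gap43 correlated at 0.902 to 0.941 with each other. These genes correlated at 0.669 to 0.861 with the first group and at 0.664 to 0.914 with the second. All of these groups were picked from these same correlations, and the first and second each held CRMP and stathmin genes.

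Promoter sequence from RefSeq (GRCm38.p6) was matched for 3 of the 10 genes. The bases just before the gene start are shown, since all 3 genes were called higher at D16 against D0; capitals mark every match to a searched motif on either strand. Crmp1 is shown at chr5:37241808-37241939 (+ strand), Dpysl5 at chr5:30711314-30711563 (+ strand) and Stmn3 at chr2:181314501-181314750 (- strand).
Crmp1: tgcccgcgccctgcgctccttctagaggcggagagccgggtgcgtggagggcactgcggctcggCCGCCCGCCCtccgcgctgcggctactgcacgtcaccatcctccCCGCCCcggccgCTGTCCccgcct
Dpysl5: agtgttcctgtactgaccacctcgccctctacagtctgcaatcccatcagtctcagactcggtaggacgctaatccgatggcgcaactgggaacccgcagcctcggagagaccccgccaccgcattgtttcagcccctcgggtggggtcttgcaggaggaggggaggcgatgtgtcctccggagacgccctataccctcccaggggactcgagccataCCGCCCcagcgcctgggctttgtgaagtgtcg
Stmn3: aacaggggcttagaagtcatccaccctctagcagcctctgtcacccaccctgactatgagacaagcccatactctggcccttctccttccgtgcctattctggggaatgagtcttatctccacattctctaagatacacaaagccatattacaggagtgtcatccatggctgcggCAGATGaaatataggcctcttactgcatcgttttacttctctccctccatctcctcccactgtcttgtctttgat
The searched motifs were GGGCGG (bound by SP factors), CAGCTG and CAGATG (E-boxes of basic helix-loop-helix factors), TGACGTCA (the CRE), TGACTCA (the AP-1 site), TATAAA (the TATA box), and the RE1 parts TTCAGCACC on one side and GGACAG on the other. GGGCGG matched in Crmp1 and Dpysl5 and occurs in 32.7% of 32851 promoters, and the first 2 matches printed for Crmp1 overlap. CAGATG matched in Stmn3 and occurs in 14.4% of promoters, and GGACAG matched in Crmp1 and occurs in 18.7%. Of those with no match in the 3 genes, CAGCTG occurs in 13% of promoters, TATAAA in 12.4%, TGACTCA in 4.46%, TGACGTCA in 1.55% and TTCAGCACC in 0.301%. In the window shown, Crmp1 is rich in G and C (75.6% of its 250 bases, of which 132 are printed), Dpysl5 less so (62.8%) and Stmn3 least (48.8%). Further GGGCGG matches of Crmp1, at -68 and -63 from the start, lie in the part not printed. A second Crmp1 window, chr5:37245514-37245763, was 59.6% G and C, also held GGGCGG and is not printed. No searched motif matched in all 3 genes.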

How the data were processed

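The authors deposited 1 table of FPKM values per gene for all 15 libraries (paired-end, 150 bases, total RNA extracted with the RNeasy Plus Mini Kit, per the labels' protocols). The genome was mm10 (GRCm38), per the submitters' processing notes; the aligner, quantifier and annotation are not given in the sources used here. No fragment counts were used, so depth was estimated from the steps of low values. Between 44.9 and 52.2% of low values lay near whole steps in a library, and the depths are approximate.

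Values were transformed as log2(FPKM + 1). Genes with 1 FPKM or more in 3 or more libraries were kept (13983 of 24346). One limma model (3.58.1, R 4.3.3) with a variance trend was fitted over the 5 groups with 10 residual degrees of freedom, and p-values were adjusted by the Benjamini-Hochberg method over all genes tested in each comparison. A call needed an adjusted p under 0.05 and a log2 change of 1 or more. The script was tested on simulated data. Family shares were compared with an exact permutation test (scipy 1.17.1).

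The 10 genes and the gene lists were chosen with earlier results of these data known. All 10 were named; each related list was given by its counts, with up to 4 called genes of the largest change per comparison; and the 3 genes of the highest Pearson correlation over 15 libraries were sought for each member. Same-numbered libraries of D4 and D8 deviated together (correlations 0.329 to 0.454 for the 3 pairs), which is where that pairing comes from; no other comparison had all 3 pairs over 0.1. Coding sequences of GENCODE transcripts (GRCm38) were aligned with mafft 7.526, and promoters came from RefSeq (GRCm38.p6). Alternatives changed the pseudocount, filter, scaling, limits, variance trend, samples fitted and replicate block, and left out each library in turn. A few genes that these rules select are not reported here.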

Additional observations from a re-analysis of the deposited data

How the results depend on the processing

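Of 64 called changes among the 100 member changes tested, 57 were called under every alternative run, 7 lost the call under at least 1, and none reversed while called; 10 others gained a call. Without a minimum on the change, all 10 genes were called at D16 against D0, but so were 8775 of all 13983 genes tested, counting both directions. Leaving out single libraries gave 1 to 2 called genes at D8 against D4, and 1 (without D16 replicate 1) to 5 at D16 against D4. Quantile normalization put Dpysl5 at 13.6% of PN CRMP FPKM and Stmn4 at 8.56% of PN stathmin FPKM. The cause was not tested in these cases. None of the changes that reversed was called: Dpysl3 at D16 against D4 was 0.011 after rescaling to an equal total and -0.22 to 0.10 with single libraries left out. The same omissions gave -0.026 to 0.62 for Dpysl4 at D4 against D0 and -0.064 to 0.59 at D16 against D8. For Stmn1 they gave -0.075 to 0.52 at D8 against D4, -0.20 to 0.31 at D16 against D4 and -0.37 to 0.091 at D16 against D8. For Stmn3 at D16 against D8 they gave -0.28 to 0.39.

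With the replicate number as a block, the D4 to D8 comparison still called 2 of the 10 genes. Among the 10 genes the block changed no count of calls in any other comparison. Over all genes tested the counts did change, for example from 1007 to 1038 at D16 against D4. The limits are few libraries per group, FPKM without counts, and low D0 levels of Stmn4 and Crmp1, which rest on few fragments.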
